A study of Danio rerio with 2 samples.

Results

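The cells described here are endothelial cells of the zebrafish tail that held transcripts of the most posterior Hox genes. A cell counted as hox13-positive when it was endothelial by its transcripts, held at least 2 unique molecular identifiers (UMIs, each standing for 1 captured RNA molecule) of hoxa13a, hoxc13a and hoxc13b together, and had esm1 under 10 UMIs per 10000. Endothelial cells had at least 10 UMIs per 10000 of cdh5, tie1, egfl7 and clec14a together and under 3 UMIs of the blood progenitor genes myb, runx1 and gata2b. These criteria gave 165 hox13-positive cells of 1878 endothelial cells and of 2739 kept cells. They were set against 1495 endothelial cells with 0 UMIs of the 3 genes, called hox13-zero. The cells were proposed as tail-tip endothelium, but no position was measured, and the name hox13-positive is used throughout.

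The material was tail tissue cut off behind the end of the yolk of AB-strain embryos at 48 h post fertilisation (hpf). All embryos carried both TgBAC(isl1:TagRFP) and Tg(dab2:EGFP), which drive red and green reporters from regulatory sequence of the transcription factor gene isl1 and of the endocytic adaptor gene dab2. Cell sorting took live cells with EGFP and split them by TagRFP. Those with TagRFP carry the label isl1-derived and those without it the label other, and each fraction gave 1 droplet library with no replicate. The labels do not state how many embryos gave the tails. Only cells with dab2-driven EGFP in the gate were sampled, so shares describe sorted cells and not the tail.

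The libraries hold 2072 and 730 barcodes with 26865577 and 5698957 UMIs, in the order isl1-derived and other that is kept below. They share 0 barcodes. The reporter RNA ran against the labels in hox13-zero cells, and in the same direction, but from few UMIs, in hox13-positive cells. TagRFP was at 5.82 CPM (UMIs per 1000000, from 6 UMIs) in the library labelled isl1-derived and at 12.9 CPM (8 UMIs) in the library labelled other, against 5.65 and 36.3 CPM in hox13-zero cells. Endogenous isl1 had 0 UMIs in hox13-positive cells of the first library, where a floor of 3 counts equals 2.91 CPM. It had 8 UMIs (12.9 CPM) in the second. File names, too, run opposite to the labels, so each library is called by its label, and any direction between them carries this conflict. With 1 library per fraction, no test was run, and all intervals are exact 95% intervals that cover counting error only.

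Hox genes encode homeodomain transcription factors and lie in clusters, in which genes at one end act towards the head and genes at the other end towards the tail. The group 13 genes sit at the posterior end of each cluster, are switched on last, and are known for patterning the end of the body axis, the tail and the fins. In the tail of the zebrafish embryo, endothelial cells line the dorsal aorta, the caudal vein and its plexus, and the vessels that sprout from them. Veins of the plexus are also known as scavenger endothelium, which clears material from the blood through stabilin and mannose receptors.

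Hox13-positive cells were a minority of the endothelium in both libraries. In the library labelled isl1-derived they numbered 103 of 1305 endothelial cells (7.89%, Clopper-Pearson interval 6.49% to 9.49%). Under the label other they numbered 62 of 573 (10.8%, 8.4% to 13.7%). They were deeper than hox13-zero cells, with medians of 9831 against 7266.5 UMIs in the first library and 8808.5 against 5844 UMIs in the second. A cell with more UMIs reaches a minimum of 2 more easily, so the choice of cells favours depth. Without a minimum, a hox13 UMI was present in 18.2% and 25.5% of endothelial cells, and in 10.2% and 16.7% with every cell thinned to 3000 UMIs.

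Free RNA can place a UMI in a cell that does not express the gene. Cells marked by at least 3 UMIs of myb, runx1 and gata2b were set beside the endothelium, but were not shown to lack hox13 RNA. The median blood-marked cell held 25151 and 20641 UMIs, and the median endothelial cell held 7714 and 6342. A hox13 UMI was found in 6.69% and 9.43% of the blood-marked cells. At 3000 UMIs their shares were 1.09% (interval 0.400% to 2.35%) and 5.66% (1.18% to 15.7%), below the endothelial shares in both libraries, but in the second the interval overlaps that of the endothelial share (13.5% to 20.3%). The summed level of the 3 genes was 60.3 and 81.6 CPM in endothelial cells and 4.02 and 5.76 CPM in the blood-marked cells. The blood-marked cells were deeper, and thinning and CPM both scale UMIs by depth, so neither comparison measures free RNA per droplet. The part of free RNA was not tested. The remaining cells, neither endothelial nor blood-marked, held 47.9 and 216 CPM, so hox13 RNA was not confined to endothelium in these tails.

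The minimum of 2 UMIs was met exactly by 36 and 24 of the hox13-positive cells, while 67 and 38 had at least 3 UMIs and 31 and 13 had at least 5. Their highest counts were 11 and 9, with a median of 3 in both libraries. Just outside the criteria stood 101 and 73 endothelial cells with 1 hox13 UMI. A further 33 and 11 cells had 2 or more hox13 UMIs and were left out for esm1, a proteoglycan gene of angiogenic tip cells, at 10 or more per 10000. Of those, 9 and 6 had esm1 between 10 and 20, and of the hox13-positive cells 17 and 5 had it between 5 and 10 and 43 and 40 had none.

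The 3 genes that chose the cells were unevenly spread over them. In the library labelled isl1-derived, hoxc13b was present in 84 of the 103 cells, hoxc13a in 62 and hoxa13a in 57. Of the 62 cells under the label other, 42, 40 and 38 held these genes. Most cells held more than 1 of the 3 genes, since 56 and 26 cells had exactly 2, 22 and 16 cells had all 3, and 25 and 20 cells had 1. Summed levels were 161 and 124 CPM for hoxc13b, 129 and 122 CPM for hoxc13a and 88.2 and 90.1 CPM for hoxa13a. These values follow from the choice of cells and are given as a description.

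The group 13 genes that played no part in the choice were present in the same cells. hoxb13a, from another Hox cluster, had 43 UMIs in hox13-positive and 7 UMIs in hox13-zero cells of the library labelled isl1-derived, or 41.7 against 0.842 CPM, a ratio of 49.5 (22.1 to 130). Under the label other it had 28 against 4 UMIs, or 45.0 against 1.45 CPM, a ratio of 31.1 (10.9 to 122). hoxb13a RNA was thus found mostly beside hoxa13a, hoxc13a and hoxc13b, in both libraries.

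hoxa13b, the duplicate of hoxa13a, stood at 32.0 against 1.08 CPM (33 and 9 UMIs, ratio 29.5, interval 13.8 to 70) and at 16.1 against 1.81 CPM (10 and 5 UMIs, ratio 8.87, interval 2.76 to 33.1). hoxd13a stood at 45.6 against 7.10 CPM (ratio 6.42, interval 4.28 to 9.58) in the first library and at 32.2 against 18.5 CPM (ratio 1.74, interval 0.982 to 2.97) in the second, where the interval includes equality. At least 1 of hoxb13a, hoxa13b and hoxd13a was detected in 56.3% and 43.5% of hox13-positive cells, against 5.90% and 11.7% of hox13-zero cells, without matching for depth. All 3 genes had under 100 UMIs in at least 1 library, the minimum for the counts across all genes given further on, and are outside those counts.

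The level of hoxb13a can be followed over the number of hox13 UMIs per cell. In the library labelled isl1-derived, hoxb13a rested at 0.842 CPM with 0 hox13 UMIs, 7.79 CPM with 1, 17.5 CPM with 2, 39.0 CPM with 3 or 4 and 69.9 CPM with 5 or more. Under the label other the levels were 1.45, 1.72, 19.5, 66.5 and 56.1 CPM. Cells with 1 UMI, which the criteria leave out, lay between hox13-zero and hox13-positive cells in the first library, where 6 of 101 held hoxb13a. In the second library 1 of 73 held it, too few to place them.

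**Figure D1:**
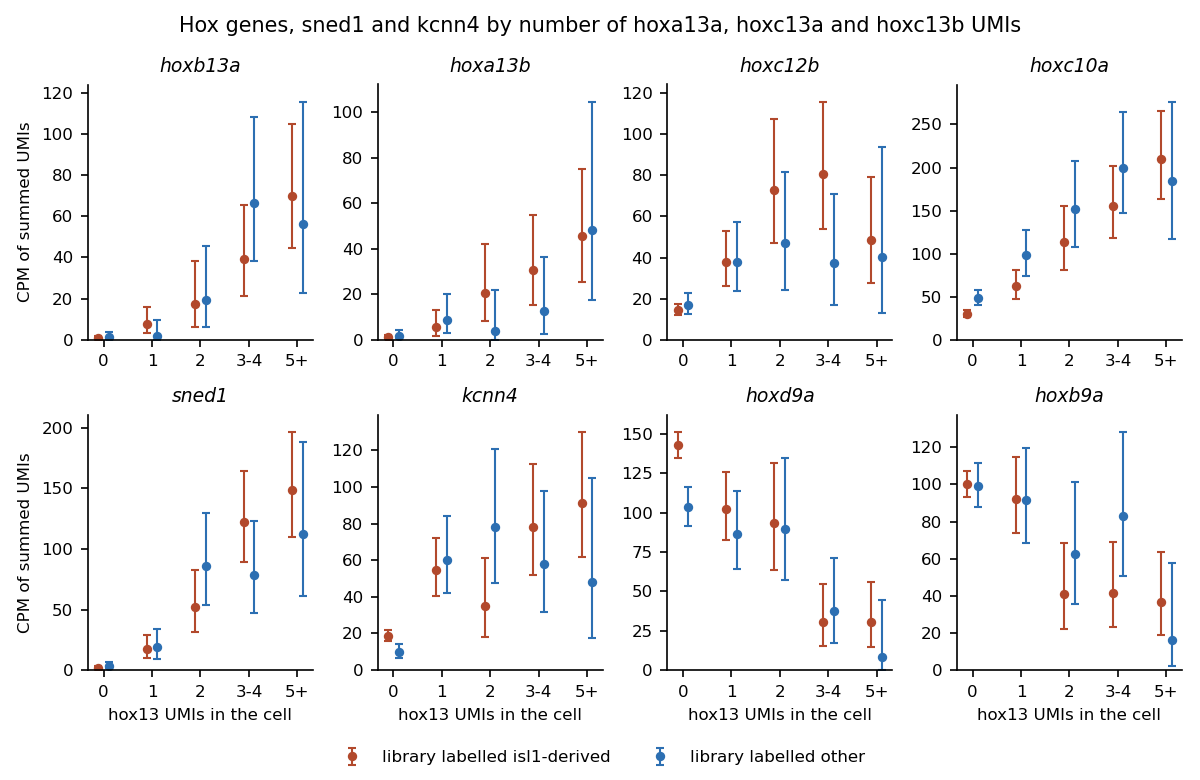
Summed level (CPM, vertical axis, from 0) of 6 Hox genes, sned1 and kcnn4 in endothelial cells grouped by their number of hoxa13a, hoxc13a and hoxc13b UMIs (horizontal axis; 0, 1, and hox13-positive cells with 2, 3 or 4, and 5 or more), with exact 95% Poisson intervals, for the library labelled isl1-derived (red) and the library labelled other (blue). hoxc10a and sned1 are higher in each hox13-positive group than in cells with 0 hox13 UMIs, and the intervals of neighbouring groups often overlap.

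Among Hox genes of groups 9 to 12, hoxc10a was higher and hoxb9a and hoxd9a were lower. hoxc10a was at 159 against 30.3 CPM (ratio 5.24, interval 4.28 to 6.41) and at 177 against 48.6 CPM (ratio 3.64, interval 2.80 to 4.72). It was detected in 67.0% and 74.2% of hox13-positive cells, and at 3000 UMIs per cell in 33.3% (24.3% to 43.4%) and 42.6% (30% to 55.9%) of them, against 8.32% (6.65% to 10.3%) and 13.2% (9.86% to 17.2%) of hox13-zero cells. hoxc12b was at 67.9 against 14.6 CPM (ratio 4.66, interval 3.42 to 6.31) and 41.8 against 17.0 CPM (ratio 2.45, interval 1.46 to 4.04), with under 100 UMIs in the second library.

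hoxb9a was at 39.7 against 100 CPM (ratio 0.397, interval 0.283 to 0.543) and 61.1 against 99.0 CPM (ratio 0.618, interval 0.428 to 0.869). hoxd9a was at 51.4 against 143 CPM (ratio 0.359) and 53.1 against 103 CPM (ratio 0.514). In cells with 5 or more hox13 UMIs hoxd9a was at 30.4 and 8.02 CPM, the second from 1 UMI.

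A gene counted as higher or lower when its CPM ratio passed 1.5-fold in the same direction in both libraries, and as measured with at least 100 UMIs per library. Of 10 measured genes of groups 9 to 12, hoxc10a was higher and hoxb9a and hoxd9a were lower, against 2.23% of all measured genes higher and 7.38% lower. With TMM scaling, which estimates one scaling factor per sum of cells from the bulk of the genes, hoxc9a and hoxd10a also counted as lower. The median log2 ratio of the 10 genes was −0.26 in both libraries. Of 7 measured genes of groups 1 to 8 none passed the fold in both libraries, but 3 counted as lower with TMM scaling, and their medians were −0.77 and −0.39, against 0.00 and 0.03 over all measured genes. Within this group hoxd3a had ratios of 0.457 and 0.772, and hoxb3a had 1.01 and 0.833.

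The order of the genes in their clusters did not always give the order of the ratios. In the gene order of the RefSeq annotation of GRCz12tu, hoxc12b follows hoxc13b directly, and hoxc11b comes next, with ratios of 1.21 and 1.09. In the cluster of hoxc13a the next genes are hoxc12a (ratios 2.52 and 2.22, from 5 and 7 UMIs in hox13-positive cells, with intervals that include 1), hoxc11a (0.597 and 0.457) and hoxc10a. hoxc10a was therefore high, while hoxc11a, between it and the group 13 gene, had ratios below 1. hoxc11a did not reach the minimum of UMIs to count as measured, so this contrast is uncertain. Next to hoxa13b lies hoxa11b, at 1.48 and 1.21. Next to hoxb13a lies hoxb10a, at 0.989 and 0.722, and next to hoxd13a lies hoxd12a, at 1.27 and 1.06.

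sned1 and kcnn4, the other markers proposed for these cells, were both high in them. sned1 encodes a secreted glycoprotein of the extracellular matrix. It had 111 UMIs in hox13-positive and 15 in hox13-zero cells of the library labelled isl1-derived, or 108 against 1.80 CPM (ratio 59.6, interval 34.6 to 110). Under the label other it had 55 and 10 UMIs, or 88.5 against 3.63 CPM (ratio 24.4, interval 12.3 to 53.7). sned1 was nearly absent from hox13-zero endothelium in both libraries.

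At 3000 UMIs per cell a sned1 UMI was present in 27.5% (19.1% to 37.2%) and 18% (9.36% to 30%) of hox13-positive cells, and in 0.211% and 0.843% of hox13-zero cells. Without thinning 53 and 33 of the hox13-positive cells held none. The levels were 17.8 and 19.0 CPM in cells with 1 hox13 UMI, and 149 and 112 CPM with 5 or more. Blood-marked cells held sned1 at 0.503 and 0.960 CPM (7 UMIs and 1 UMI), and the remaining cells held 0 UMIs, while they did hold hox13 RNA.

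kcnn4 encodes a calcium-activated potassium channel. It was at 67.9 against 18.5 CPM (ratio 3.66, interval 2.72 to 4.89) and 64.3 against 9.79 CPM (ratio 6.57, interval 3.93 to 11.1). It was detected in 31.1% and 29.0% of hox13-positive cells, and at 3000 UMIs in 20.6% (13.2% to 29.7%) and 6.56% (1.82% to 15.9%), the second of which overlaps the 3.09% (1.55% to 5.46%) of hox13-zero cells. kcnn4 was not highest in the hox13-positive cells. The cells left out for high esm1 held it at 162 and 238 CPM. They held sned1 at 25.2 and 83.9 CPM, from 3 of 33 and 2 of 11 cells. The second value is close to the sned1 level of hox13-positive cells in that library. Both markers were proposed from these data, so their levels are a description.

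Among measured genes, hox13-positive cells differed from hox13-zero cells more often by lower than by higher levels. The minimum of UMIs favours lower calls, since hox13-positive sums were smaller (1031579 against 8311608 UMIs, and 621677 against 2757995). At an equal CPM, a gene held mainly by hox13-positive cells reaches it less easily, and hoxb13a, hoxa13b, sned1 and kcnn4 did not. A minimum of 30 UMIs gave 322 higher and 620 lower genes, and 300 UMIs gave 20 and 140. Of 4391 measured genes, 98 (2.23%) were at least 1.5-fold higher in both libraries and 324 (7.38%) at least 1.5-fold lower, together 9.61%, and 8 passed the fold in opposite directions. The 5 measured genes of the selection criteria are among the 4391. TMM scaling shifted log2 ratios by −0.14 and −0.15 and gave 44 higher and 485 lower genes, so the higher share of these genes moved from 23.2% to 8.32%. Against hox13-zero cells with low esm1, which match the esm1 limit of the hox13-positive cells, 123 (2.86%) of 4298 measured genes were higher and 356 (8.28%) lower, sharing 87 and 312 genes with the counts above.

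**Figure D2:**
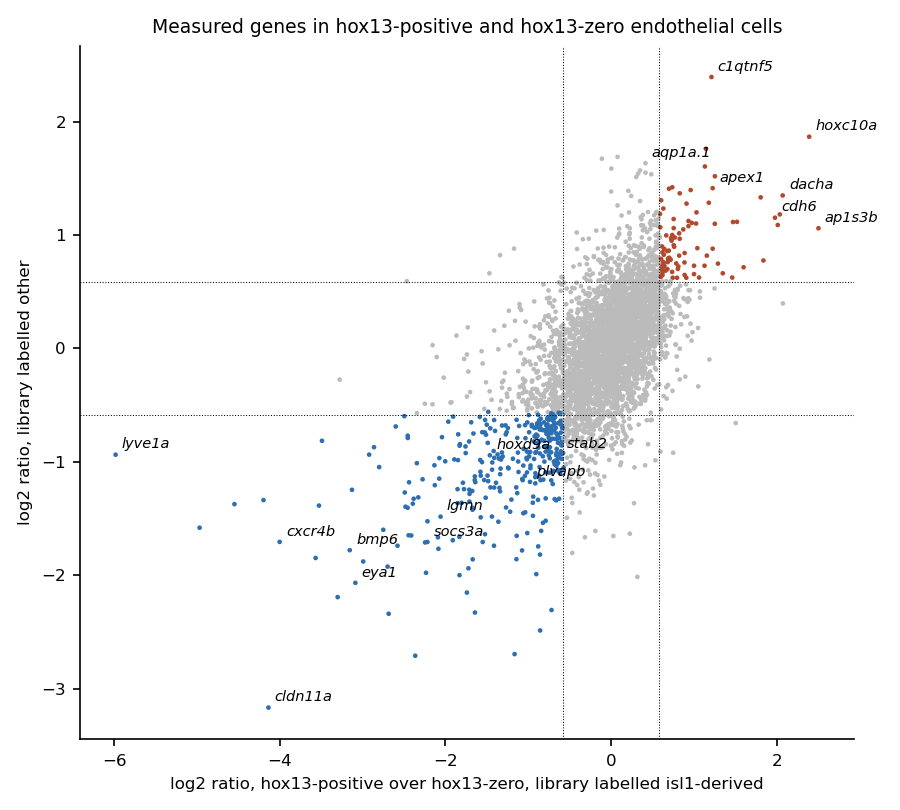
Log2 ratio of CPM, hox13-positive over hox13-zero endothelial cells, in the library labelled isl1-derived (horizontal axis) and in the library labelled other (vertical axis), 1 point per measured gene with at least 1 UMI in each sum. Red points (higher) and blue points (lower) passed 1.5-fold, shown by dotted lines, in both libraries; the blue points reach further from 0, down to lyve1a and cldn11a.

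The leading higher genes after hoxc10a were of mixed function. ap1s3b, a small subunit of the AP-1 clathrin adaptor of the trans-Golgi, stood at 616 against 109 CPM (ratio 5.67, interval 5.12 to 6.29) and 466 against 224 CPM (ratio 2.08, interval 1.80 to 2.40). It was present in 78.6% and 80.6% of hox13-positive cells, with a median of 4.27 and 4.35 UMIs per 10000 and a maximum of 20.9 and 14.7, against 27.1% and 44.7% of hox13-zero cells. The cadherin gene cdh6 stood at 190 against 48.2 CPM (ratio 3.94, interval 3.30 to 4.68) and 216 against 97.2 CPM (ratio 2.22, interval 1.79 to 2.74), and 67.0% and 67.7% of hox13-positive cells held it.

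dacha, of the Dachshund family of transcription cofactors, had ratios of 4.2 (3.26 to 5.37) and 2.54 (1.74 to 3.66). c1qtnf5, a secreted protein with a C1q domain, had ratios of 2.31 (1.92 to 2.77) and 5.26 (3.73 to 7.43). The cells left out for high esm1 held c1qtnf5 at 331 CPM in the library labelled isl1-derived, above the 150 CPM of the hox13-positive cells.

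Genes of secreted or matrix proteins among the leaders were cpxm1a, an inactive carboxypeptidase (ratios 3.49 and 2.51), and the heparin-binding growth factor gene ptn (2.38 and 2.14). Genes of growth and repair were apex1, the main endonuclease of base excision repair (2.34 and 2.66), pclaf, a partner of PCNA (1.94 and 2.62), and clns1a, which acts in the assembly of splicing particles (2.21 and 3.38). dpysl3, a cytoskeletal regulator, had ratios of 2.37 and 2.86, and fkbp7, a protein folding enzyme of the endoplasmic reticulum, had 2.19 and 3.03. The 12 leading higher genes were picked by their interval bounds, so intervals above 1 in both libraries follow from that choice. All 12 had esm1-matched ratios of at least 1.96.

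The first of the leading lower genes, sost and cldn11a, had few or no UMIs in hox13-positive cells. sost encodes the secreted Wnt antagonist sclerostin. In the library labelled isl1-derived it had 0 UMIs against 257 in hox13-zero cells, a ratio of 0 (interval 0 to 0.116). In the library labelled other it had 9 UMIs against 311 (14.5 against 113 CPM, ratio 0.128, interval 0.0582 to 0.247). The claudin gene cldn11a had 1 and 2 UMIs in hox13-positive cells against 212 and 99 in hox13-zero cells (ratios 0.0380, interval 0.000958 to 0.214, and 0.0896, interval 0.0107 to 0.332). Both were captured rarely or not at all in hox13-positive cells, which does not give the share of cells that hold them.

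socs3a, an inhibitor of cytokine signalling, stood at 131 against 610 CPM (ratio 0.214, interval 0.179 to 0.254) and 146 against 480 CPM (ratio 0.305, interval 0.244 to 0.377). The ligand gene bmp6 had ratios of 0.108 (0.0591 to 0.183) and 0.284 (0.166 to 0.457), and eya1, a transcriptional coactivator, had 0.107 and 0.227. Of the lower genes, socs3a was still detected in 53.4% and 46.8% of hox13-positive cells and lgmn in 74.8% and 72.6%. lgmn, a lysosomal protease, stood at 154 against 644 CPM (ratio 0.239, interval 0.203 to 0.280) and 351 against 982 CPM (ratio 0.357, interval 0.310 to 0.410).

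The other leading lower genes were the adhesion gene nectin1b (0.264 and 0.307), ms4a17a.11, of a family of membrane proteins (0.183 and 0.137), lrmda (0.339 and 0.305), the stress-induced transcription factor gene atf3 (0.313 and 0.377), the fatty acid elongase gene elovl1b (0.309 and 0.271) and the LIM-domain gene fhl2a (0.297 and 0.254). Their intervals lay below 1 in both libraries, which follows from picking the leading genes by these bounds.

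General endothelial genes passed the fold in both libraries about as rarely as all genes. The cadherin gene cdh5, which is part of the criteria for all endothelial cells, had ratios of 0.937 (0.885 to 0.992) and 1.02 (0.952 to 1.1) and was present in all but 1 of the hox13-positive cells. Of 17 measured general endothelial genes outside the criteria, none was higher and 1 was lower, against 7.38% of all measured genes. That gene, plvapb, which builds the diaphragms of fenestrae and caveolae, stood at 1079 against 2127 CPM (ratio 0.507) and 1033 against 2335 CPM (ratio 0.442). The list medians were −0.29 and −0.10. The VEGF receptor gene kdrl had ratios of 0.599 and 0.922, and etv2, an early endothelial transcription factor gene, had 1.52 and 1.08.

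The scavenger receptor genes stab2 and mrc1a were present in most hox13-positive cells but at lower summed levels than in hox13-zero cells. stab2, a hyaluronan scavenger receptor gene, was detected in 88.3% and 100% of them, with a median of 6.10 and 12.8 UMIs per 10000. Its level was 839 against 1280 CPM (ratio 0.656, interval 0.611 to 0.703) and 1626 against 3100 CPM (ratio 0.525, interval 0.491 to 0.560). The spread was wider among hox13-zero cells under the label isl1-derived, from 0 to 155 per 10000 with a median of 2.49, so their higher summed level came with a lower median cell. The mannose receptor gene mrc1a had ratios of 0.477 (0.424 to 0.535) and 0.447 (0.403 to 0.494).

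Of 19 measured venous and caudal plexus genes, 9 were lower and 1, cdh6, was higher, against 7.38% of all measured genes lower and 2.23% higher. TMM scaling gave the same counts for this list. The lower genes were stab1, stab2, mrc1a, lyve1b, lyve1a, tfec, ctsla, ctsh and mafbb. The list median was −0.59 and −0.74 on the log2 scale. Among the 9 were also the transcription factor genes tfec (0.653 and 0.518) and mafbb (0.50 and 0.594). The receptor gene flt4 had ratios of 1.08 and 1.02, while the transcription factor gene nr2f2 (1.60 and 0.967) and the selectin gene sele (1.96 and 1.05) passed the fold upwards in the first library only. The lymphatic list shares its 6 called genes with the venous list (5 lower and cdh6 higher, of 8 measured).

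lyve1a, a hyaluronan receptor gene, had 2 UMIs in hox13-positive cells of the library labelled isl1-derived against 1272 in hox13-zero cells, a ratio of 0.0127 (0.00153 to 0.0459). In the library labelled other it had 27 against 233 UMIs, a ratio of 0.514 (0.332 to 0.768). The gene was thus all but missing from hox13-positive cells of only 1 library.

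The lysosomal genes were lower as a group. Of 20 measured scavenging and lysosome genes 14 were lower and 0 higher, against 7.38% of all measured genes lower and 2.23% higher. The list medians were −0.88 and −0.84. TMM scaling made 16 lower, and 12 were lower against hox13-zero cells weighted to the depth of the hox13-positive cells, a setting in which stab1 and stab2 no longer passed the fold. The lower genes outside the venous list included the cathepsin genes ctsba (0.542 and 0.544), ctsd (0.533 and 0.529) and ctsz (0.411 and 0.373), the hexosaminidase genes hexa and hexb (0.392 and 0.425 for hexb), the sialic acid lyase gene npl (0.529 and 0.437) and the proton pump gene atp6v1aa (0.526 and 0.573). The most abundant member, ctsla, stood at 997 against 2096 CPM and 1383 against 3073 CPM, lower in both libraries by a similar ratio (0.475 and 0.450).

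dab2, whose regulatory sequence drives the EGFP of the sort, stood at 1203 against 1417 CPM (ratio 0.849, interval 0.800 to 0.900) and 1728 against 2989 CPM (ratio 0.578, interval 0.542 to 0.616). The GFP feature stood at 1333 against 1380 CPM and 1485 against 2086 CPM. Both were present in hox13-positive cells at levels of the same order as in hox13-zero cells, and neither passed 1.5-fold in both libraries.

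**Figure D3:**
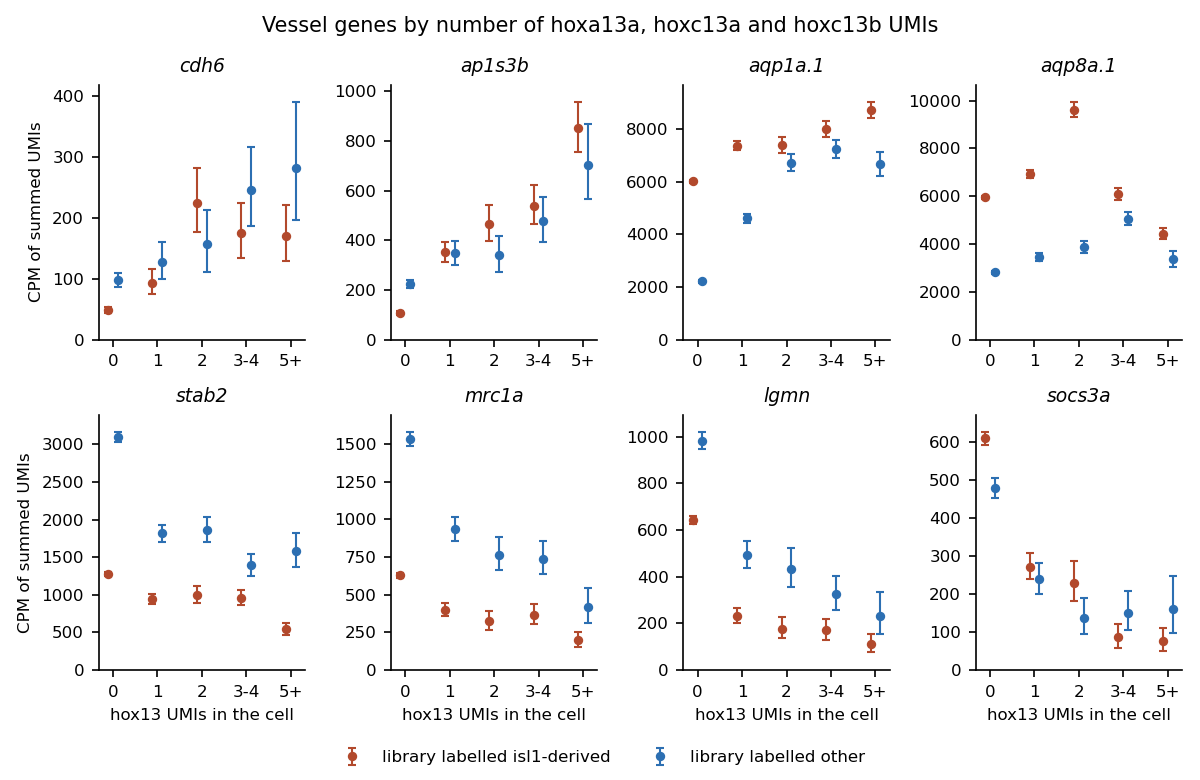
Summed level (CPM, vertical axis, from 0) of 8 vessel genes in endothelial cells grouped by hoxa13a, hoxc13a and hoxc13b UMIs (horizontal axis, groups as for the Hox genes), with exact 95% Poisson intervals, for the library labelled isl1-derived (red) and the library labelled other (blue). cdh6 and ap1s3b are higher and mrc1a, lgmn and socs3a lower in cells with hox13 UMIs in both libraries, while aqp8a.1 peaks at 9628 CPM in cells with 2 UMIs of the first library.

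The genes of 2 water channels that mark arteries and sprouts had the most UMIs of the arterial list in hox13-positive cells, but neither passed 1.5-fold in both libraries. aqp1a.1 stood at 8028 against 6015 CPM (ratio 1.33, interval 1.3 to 1.37) and at 6912 against 2229 CPM (ratio 3.10, interval 2.98 to 3.22). Against hox13-zero cells with low esm1 its ratios were 2.27 and 4.04. aqp8a.1 stood at 6729 against 5949 CPM (ratio 1.13, interval 1.1 to 1.16) and 4235 against 2813 CPM (ratio 1.51, interval 1.44 to 1.57), and 99.0% and 96.8% of hox13-positive cells held it, with medians of 37.7 and 19.1 UMIs per 10000 against 8.45 and 1.88 in hox13-zero cells.

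Most other arterial genes did not pass the fold in both libraries, and those that did went both ways. Of 15 measured arterial genes, ltbp1, which anchors latent TGF-beta in the matrix, was higher (1.68 and 2.19), and cxcr4b, unc5b and cldn5a were lower. Over all measured genes 2.23% were higher and 7.38% lower. cxcr4b, a chemokine receptor gene, stood at 9.69 against 163 CPM (ratio 0.0595, interval 0.0285 to 0.110) and 11.3 against 39.2 CPM (ratio 0.288, interval 0.113 to 0.613). The claudin gene cldn5a stood at 13.6 against 112 CPM (ratio 0.121) and 17.7 against 67.8 CPM (ratio 0.261).

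The arterial medians were −0.87 and −0.13. Against hox13-zero cells with low esm1 they were −0.30 and 0.11, and aqp1a.1 and ltbp1 were higher and unc5b and cldn5a lower, of 13 measured. Over all genes measured in that comparison, 2.86% were higher and 8.28% lower. dll4, the endothelial Notch ligand gene, had ratios of 0.611 and 1.18, or 0.915 and 1.49 with esm1 matched. The defining gene of the tip and angiogenic list, esm1, was limited by the criteria. The list had 0 higher and 2 lower (apln and unc5b) of 14 measured genes, against 2.23% of all measured genes higher and 7.38% lower. With TMM scaling 4 genes of the list were lower. The peptide ligand gene apln had ratios of 0.175 and 0.651, but 0.501 and 1.38 against hox13-zero cells with low esm1, so its direction rested on the comparison cells in the library labelled other.

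A venous and an arterial transcript were often present in the same hox13-positive cell. With each cell thinned to 3000 UMIs, stab2 and aqp8a.1 were both detected in 74 of 102 hox13-positive cells (72.5%, 62.8% to 80.9%) and in 46 of 61 (75.4%, 62.7% to 85.5%). In hox13-zero cells the shares were 23.9% (21.2% to 26.8%) and 40.2% (35.0% to 45.5%). Hox13-positive cells thus held the pair more often than hox13-zero cells in both libraries, and hox13-zero cells mostly held 1 of the 2 genes, stab2 alone in 28.0% and 47.2% and aqp8a.1 alone in 41.6% and 10.7%.

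Cells with 1 hox13 UMI lay between, at 55.7% and 60.9%, and the hox13-positive cells left out for high esm1 had 24.2% and 27.3%. Blood-marked cells, which were not shown to lack these 2 genes, had both in 3.80% and 11.3%. They held aqp8a.1 alone in 23.0% and 17.0% and stab2 alone in 4.89% and 18.9%. With at least 3 UMIs of each gene required, the shares were 28.4% and 37.7% of hox13-positive and 4.64% and 12.6% of hox13-zero cells. At that limit hox13-positive cells, too, mostly reached it for 1 gene only, aqp8a.1 in 56.9% and 32.8% and stab2 in 10.8% and 27.9%. Thinning left out 1 and 1 hox13-positive and 119 and 71 hox13-zero cells. The measure was chosen after these values were seen. Droplets with 2 cells could also hold both genes, and a doublet caller marked 15 and 1 barcodes of the libraries, 0 of them hox13-positive.

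**Figure D4:**
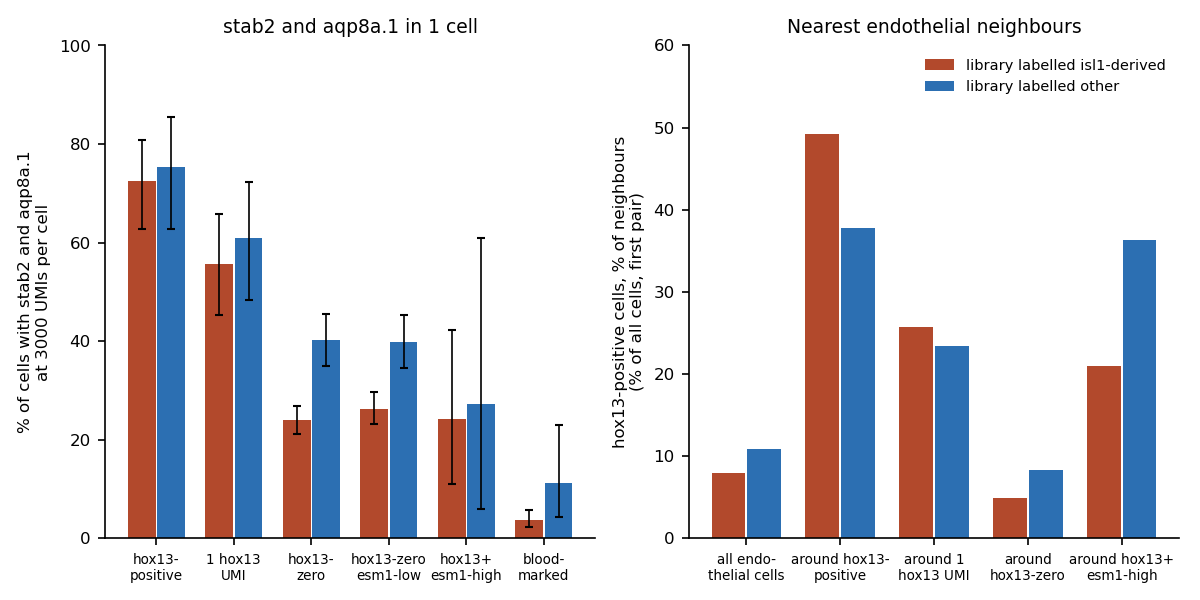
Left, percent of cells with at least 1 UMI each of stab2 and aqp8a.1 at 3000 UMIs per cell, by cell class and library (red, labelled isl1-derived; blue, labelled other), with exact binomial intervals. Right, percent of hox13-positive cells among all endothelial cells and among the 15 nearest endothelial cells of each class; hox13-positive cells reach 72.5% and 75.4% on the left and 49.3% and 37.7% on the right.

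Hox13-positive cells resembled each other in genes other than the Hox genes. Nearest neighbours were found within each library from 2000 variable genes, leaving out all Hox genes and the genes of the criteria. Of the 15 nearest endothelial cells of a hox13-positive cell, a mean of 49.3% and 37.7% were also hox13-positive, against 7.89% and 10.8% of all endothelial cells. The median cell had 53.3% and 40.0%, and 4 cells of each library had no such neighbour.

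For hox13-zero cells the mean share was 4.90% and 8.32%, and for cells with 1 hox13 UMI 25.7% and 23.5%. The cells left out for high esm1 had 21.0% and 36.4%. With cells thinned to 3000 UMIs the shares around hox13-positive cells were 42.6% and 31.8%, against 8.64% and 12.3% of all endothelial cells that reached this depth.

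Some genes of DNA replication were higher and some stress genes lower, against 2.23% of all measured genes higher and 7.38% lower. Of 8 measured G1/S genes, pcna, mcm2, rrm1 and rrm2 passed 1.5-fold in both libraries and none was lower, but with TMM scaling 0 passed. pcna, the replication clamp gene, stood at 289 against 190 CPM (ratio 1.52, interval 1.34 to 1.72) and 188 against 110 CPM (ratio 1.72, interval 1.38 to 2.13). Against depth-weighted hox13-zero cells mcm2 and rrm1 passed. The medians were 0.48 and 1.03. The mitotic genes mki67 (0.935 and 0.931) and top2a (0.960 and 0.887) were near 1, with under 100 UMIs in the second library. Outside the lists, the growth regulator genes mycn (2.76 and 2.15) and ccnd1 (1.72 and 1.67) counted as higher. Both were chosen after their values were seen.

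Of 17 measured genes of stress and cell dissociation, atf3, btg2, hsp70l, socs3a and gadd45ba were lower and none was higher, with medians of −0.76 and −0.36. The immediate early gene fosab stood at 1045 against 1902 CPM (ratio 0.549) and 1243 against 1759 CPM (ratio 0.707), and it passed in both libraries with TMM scaling only. Part of this list responds to the preparation of cells, and its part in the other differences was not tested.

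Retinoic acid is a regulator of Hox genes along the body axis. Of 6 measured genes of its metabolism and receptors, cyp26b1, which degrades it (23.3 against 130 CPM, ratio 0.179, and 45.0 against 79.0 CPM, ratio 0.570), and dhrs3a, which limits its synthesis (ratios 0.131 and 0.467), were lower. Over all measured genes 7.38% were lower. Against depth-weighted hox13-zero cells cyp26b1 no longer passed, and the receptor gene rarga (1.90 and 1.42 without weighting) counted as higher. The tailbud list had 2 measured genes, and neither passed the fold in both libraries. lef1, a mediator of Wnt signalling, had ratios of 1.51 and 0.675, and the Wnt ligand gene wnt5b had 1.77 and 1.21. cdx4, a tailbud regulator of Hox genes, had 0 UMIs in hox13-positive cells of both libraries against 9 and 5 in hox13-zero cells, too few to give a direction.

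The signalling lists can be read against the same 7.38% of lower genes. The Notch list had 2 lower of 14 (her12 and lfng), the BMP and TGF-beta list 1 lower of 16 (bmp6), the VEGF list 0 of 10 and the chemokine and guidance list 2 lower of 17 (cxcr4b and unc5b), and none had a higher gene. With TMM scaling the lower genes of these lists numbered 3, 3, 1 and 3, and against depth-weighted hox13-zero cells lfng no longer passed. The chemokine gene cxcl12a passed the fold in the first library only, at 99.8 against 509 CPM (ratio 0.196, interval 0.160 to 0.238) and 272 against 405 CPM (ratio 0.672, interval 0.568 to 0.790). It counted as lower in both libraries with TMM scaling, against esm1-low cells and with thinned cells, but not against depth-weighted cells. Of 16 measured matrix genes ltbp1 was higher and timp2b and hapln1b were lower. Of 5 measured ion channel genes, scn5lab (0.149 and 0.286) and clic2 (0.353 and 0.665) were lower, and none was higher, while kcnn4 itself was below the minimum of UMIs. Outside these lists, col11a1b, a fibrillar collagen gene chosen after its values were seen, stood at 122 against 30.3 CPM and 119 against 56.2 CPM.

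**Figure D5:**
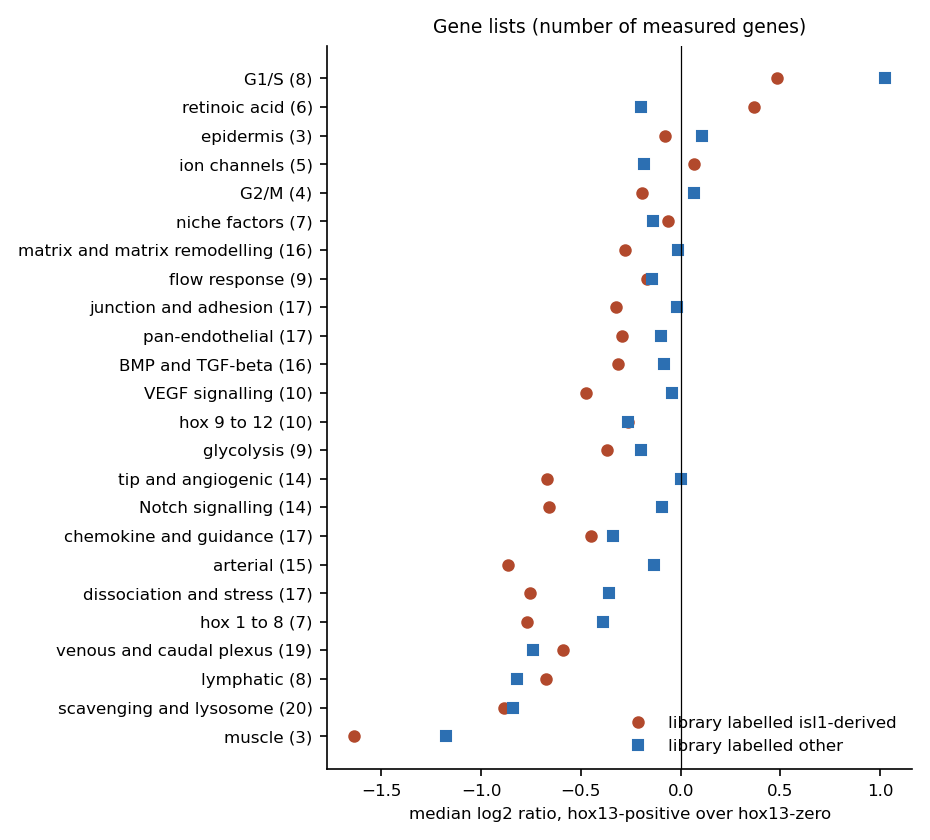
Median log2 ratio, hox13-positive over hox13-zero endothelial cells (horizontal axis), of each gene list with at least 3 measured genes (number in brackets), in the library labelled isl1-derived (circles) and the library labelled other (squares). Scavenging, lymphatic, venous, stress and Hox 1 to 8 lists lie left of 0 in both libraries and the G1/S list right of 0, while the arterial, tip and Notch medians differ between the libraries.

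Summed markers of other cell types were at like or lower levels in hox13-positive cells, and their part in the results above was not tested. Summed over 29 mesenchyme genes, the level was 15 against 14.1 UMIs per 10000 and 20 against 21.2, most of it from postnb, and 7 and 10 of the 29 genes were at 0 in hox13-positive cells. The range over hox13-positive cells was 2.97 to 29.6 and 0 to 65.2. Epidermal genes summed to 32.2 against 34.9 and 34.8 against 34.1, most of it krt8, neural and crest genes to 2.85 against 3.87 and 3.65 against 3.46, and muscle genes to 0.630 against 1.41 and 1.66 against 3.74. Blood progenitor genes summed to 6.11 against 5.34 and 5.37 against 5.83, most of it lmo2, which endothelium also expresses, and erythroid genes to 1.28 against 1.64 and 0.595 against 0.482. The median mitochondrial share was 1.01% against 1.08% and 0.939% against 0.892%.

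Between the libraries, hox13-positive cells had ratios past 1.5-fold in several scavenger genes and in a few Hox genes, the latter with wide intervals. The comparison uses the sums over 103 and 62 cells and rests on 1 library each. Taken as isl1-derived over other, the ratio was 1.3 (0.986 to 1.73) for hoxc13b, 1.05 (0.790 to 1.42) for hoxc13a, 0.979 (0.694 to 1.39) for hoxa13a, 0.925 (0.562 to 1.55) for hoxb13a, 0.898 (0.701 to 1.15) for hoxc10a and 1.22 (0.873 to 1.71) for sned1. These intervals include 1. Of 9 measured genes of groups 9 to 12, hoxc12b (1.62, interval 1.02 to 2.65) and hoxc11b (1.57, interval 1.06 to 2.38) were above 1.5-fold and hoxb9a (0.650, interval 0.408 to 1.04) was below. Over all measured genes 4.47% were above and 11% below. The interval of hoxb9a includes 1, and those of hoxc12b and hoxc11b begin just above it. hoxa13b had a ratio of 1.99 (0.957 to 4.52) from 33 and 10 UMIs, too few to count as measured.

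Of 4270 measured genes, whose sums held 50 or more UMIs in total, 191 (4.47%) exceeded 1.5-fold towards the isl1-derived label and 468 (11%) towards the label other, but with TMM scaling these counts were 391 and 254, so the direction in which more genes differ depends on the scaling. Venous genes had 7 of 18 lower and none higher (median −0.50), and scavenging genes 7 of 18 lower and none higher (median −0.56), against a median of −0.08 over all genes. mrc1a had a ratio of 0.437 (0.376 to 0.507) in hox13-positive and of 0.410 in hox13-zero cells, and stab2 0.516 and 0.413.

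The leading genes of the isl1-derived label were the lysozyme gene lyz (83.4 against 6.43 CPM, from 86 and 4 UMIs), the histone gene hist1h4l (ratio 2.29), icn (2.10), rrm2 (2.47) and the transcription factor gene sox4a (3.21). lyz is a myeloid gene and differed in hox13-zero cells too, by a ratio of 22.7 against 13.0 in hox13-positive cells. On the other side were selenop, a selenium carrier gene (ratio 0.318), the potassium channel gene kcnq5a (0.251), runx1t1 (0.314), cxcl12a (0.367) and the Wnt ligand gene wnt9a (0.323). In hox13-zero cells runx1t1 and cxcl12a went the other way, with ratios of 1.2 and 1.3, a difference between the 2 kinds of cell that was not tested.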

How the data were processed

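Single cells of 2 sorted fractions were measured with the 10x Chromium v3.1 chemistry, 1 library each. The deposited matrices hold whole UMI counts per gene and barcode, made by the authors against GRCz11 with Cell Ranger 5.0.0 per the submitters' processing notes and 5.0.1 per the file headers. The 27421 features, including reporter features, were summed to 26764 symbols, of which some join near-identical copies that share reads.

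The filter kept barcodes that showed 500 or more genes and less than 10% of UMIs from mitochondrial genes. The cells, the gene lists and the comparisons were chosen with earlier results of these data known. UMIs were summed per class and library, scaled to CPM, and compared as ratios with exact conditional binomial intervals; shares have Clopper-Pearson and levels Poisson intervals. Log2 ratios in list medians have 0.5 added to each count. Neighbours used 30 principal components. Doublets were called with Scrublet in scanpy 1.11.5 and not removed, and since the caller marked few barcodes, undetected doublets remain possible. No p-values were computed, because cells of 1 library are not replicates.

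Named genes were the genes of the criteria, the measured Hox genes, the 12 leading genes per direction (ordered by the weaker library's interval bound, the one closest to 1), the 5 of each direction between libraries, and leading members of each list. The genes mycn, ccnd1 and col11a1b were added after their values were seen. Alternatives changed the filters, thresholds, comparison cells, depth, scaling (TMM in edgeR 4.0.16) and minimum UMIs. A simulation drew Poisson counts for the hox13-positive and hox13-zero sums, with 4391 genes and 200 changed 3-fold. In it 100% of raised and 99% of lowered genes were recovered and 0.0239% of the others were called. It held no variation between cells, so it checks the calculation and does not give the rate of false calls in these data. Python 3.11.15, numpy 2.4.6, scipy 1.17.1, pandas 2.3.3, scikit-learn 1.9.0, matplotlib 3.10.9 and R 4.3.3 were used. Hox gene order came from the RefSeq annotation of GRCz12tu, whose coordinates were not used.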

Additional observations from a re-analysis of the deposited data

Results flagged for a closer look

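The laminin gene lamb1a, a basement membrane component, went opposite ways in the 2 libraries. It was at 40.7 CPM in hox13-positive against 62.3 CPM in hox13-zero cells of the library labelled isl1-derived, a ratio of 0.653 over 42 and 518 counts. Under the label other it was at 59.5 against 38.8 CPM, a ratio of 1.53 over 37 and 107 counts. The difference between the libraries was not tested, since each fraction has 1 library.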

How the results depend on the processing

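No paired test was run, since the 2 libraries are different fractions with 1 library each, and no result comes from a test. Hox13-positive and hox13-zero cells were compared within each library, and a fit over the 2 fractions as if they were replicates was not run. Over 93 genes and lists, 996 recomputed values moved by less than a set margin and 146 by more. That margin drew on the spread between the 2 libraries, which are different fractions, so it is not an error between replicates. A gene or list that differs between the libraries can therefore shift far and still count as unmoved. The mean over both libraries reversed no called direction. In the library labelled other alone, apln, lower in the main comparison, had a log2 ratio of 0.48 against hox13-zero cells with low esm1, and rrm2, higher there, had −0.04 with at least 3 hox13 UMIs. With at least 3 hox13 UMIs the share of hox13-positive cells was 5.13% and 6.63%, and without the esm1 limit it was 10.4% in the library labelled isl1-derived. A hox13 UMI was found in 10.2% and 16.7% of endothelial cells thinned to 3000 UMIs. The 98 higher genes became 51 with thinned cells, 44 with TMM scaling, 322 with a minimum of 30 UMIs and 20 with a minimum of 300. The 324 lower genes became 187 with thinned cells, 620 with a minimum of 30 and 140 with a minimum of 300. Between the libraries the 191 higher genes became 391 with TMM scaling, 64 thinned, 395 with a minimum of 30 and 32 with a minimum of 150. The 468 lower genes became 254, 140, 828 and 85 under these settings, and 291 with at least 3 hox13 UMIs. Thinning and the minimum change how many genes are measured; otherwise the cause was not tested.

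The mean of the 2 list medians on the log2 scale moved as follows. The venous list, at −0.67, was −0.89 without the esm1 limit, −0.82 against esm1-low cells, −0.55 against all other endothelial cells, −0.53 thinned, −0.52 depth-weighted, −0.81 with TMM scaling and −0.49 with a minimum of 300. The lymphatic list, at −0.75, was −0.94, −0.89 and −0.60 in the first 3 of these settings, −0.59 depth-weighted and −0.89 with TMM scaling. The chemokine list, at −0.40, was −0.60 with at least 3 hox13 UMIs, −0.22 depth-weighted and −0.54 with TMM scaling. The scavenging list, at −0.86, was −0.97 without the esm1 limit and −1.01 with TMM scaling. Requiring 3 UMIs of stab2 and aqp8a.1, a setting chosen after seeing the data, gave 28.4% and 37.7% of hox13-positive cells. Depth limits genes with few UMIs in at least 1 class, among them hoxa13b, hoxb13a, hoxc12a and cdx4.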
